A study of Selaginella moellendorffii with 8 samples.

Results

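The rhizophore and the root of Selaginella moellendorffii were compared, with the 2 rhizophore libraries set against the 2 root libraries of a series of 8 libraries from 4 organs. The 4 libraries were taken by the organ named in their column headings, and the shoot and leaf libraries entered the filter, the scaling and the estimate of the spread and gave reference levels. Selaginella belongs to the lycophytes, a lineage of vascular plants that separated early from the one leading to ferns and seed plants. At each fork of its stem lie angle meristems, and the ventral one grows out as a leafless axis, the rhizophore, which extends toward the soil and bears roots near its tip. Whether a rhizophore is a kind of root, a kind of shoot or an organ of its own has long been debated in plant morphology, and the comparison addresses how far its RNA differed from that of the root.

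Both organs came from untreated plants raised from stem cuttings at 80% humidity, with 16 h of light and 8 h of dark. Rhizophores were collected at 4 to 7 days, at a length of 2.5 to 3.5 cm, before a cap, hairs, green colour or microphylls had formed. Roots were collected at 10 to 20 days and 5 to 10 cm, with a cap and hairs. Organ and age cannot be told apart in this comparison, since the roots were the older outgrowths of the same meristem. Each library was made from 40 pooled pieces of tissue, and the labels call the pair of an organ biological repeats without saying whether separate plants were used. P-values therefore measure the spread between these samples only. In pooled tissue, fewer cells of a type and less RNA per cell cannot be told apart.

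The rhizophore libraries held 10063538 and 11886486 counts and the root libraries 25937179 and 27891111, for replicates 1 and 2. The deposited table lists 25004 gene models by number and gives no gene names, and none of the names (0 of 25004) matched the RefSeq gene table of this species. Gene functions, root hair or photosynthesis markers and genome positions are therefore not given here, and the organ labels were not checked against marker genes. Levels below are CPM, counts relative to the size of the library, scaled by TMM, a factor that evens out differences in library composition. They are not divided by gene length, so changes are compared between libraries. Where models are ranked or classed by level, this is by counts and not by amount of RNA.

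The authors' deposited tables differ in where they place the column labelled rhizophore replicate 2, and this touches each result below. Fitted as a sum of the 8 count columns, the authors' deposited Root average took 24.9% from root replicate 1, 25.5% from root replicate 2 and 49.6% from rhizophore replicate 2. The authors' deposited Rhizophore average took 99.2% from rhizophore replicate 1 and 0.649% from rhizophore replicate 2. In the count table and in the sample labels that column is a rhizophore. Its label was kept and its values are shown apart. The numbers of models called are also given without it, whereas counts by level, by size of change and against shoot and leaf rest on both rhizophore libraries.

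Rhizophore and root counts were led by different models. No model was among the 10 most abundant of all 4 libraries, and rhizophore replicate 1 shared none of its 10 leading models with either root library. The rhizophore libraries shared 5 of their leading 10 with each other and the root libraries 6, while rhizophore replicate 2 shared 3 with root replicate 2 and none with root replicate 1. Among the 100 leading models, rhizophore replicate 2 shared 40 with rhizophore replicate 1, 43 with root replicate 1 and 54 with root replicate 2, whereas the root libraries shared 81. Rhizophore replicate 1 shared 26 and 28 of its leading 100 with the root libraries. Of the 26 models that led at least 1 library, 11 were higher in rhizophore and 7 were lower by the test described next.

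The 10 leading models took 9.86% of the counts in rhizophore replicate 1 and 4.82% in replicate 2, against 7.95% and 5.44% in the root libraries. Their 95% Wilson intervals, which cover counting error only, were 9.84 to 9.88%, 4.81 to 4.83%, 7.94 to 7.96% and 5.43 to 5.45%. A share of 50% of all counts lay in 743 and 1106 models in rhizophore and in 1173 and 1407 models in root. The organs overlapped in the share of the 10 leading models and not in this last number, which was lower in both rhizophore libraries.

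Of 23662 models tested, 8662 (36.6%) differed between the organs at an adjusted p under 0.05 in edgeR's quasi-likelihood test. The rhizophore was higher in 2803 models (11.8%) and lower in 5859 (24.8%). Many calls, among them models at 0 in both rhizophore libraries, shared an adjusted p of 0.0428 in edgeR. That value is close under the cut, so such calls enter or leave together. In 8661 of the 8662 the libraries of the organs did not overlap. Without regard to the test, both rhizophore libraries lay above both root libraries in 5420 models (22.9%) and below both in 10821 (45.7%), and the libraries overlapped in 7421 (31.4%). The median log2 fold change over all tested models was -0.50. The excess of lower calls depended on the setting. It was smaller with DESeq2's test (3211 higher and 3799 lower) and with no low-count filter (2466 and 3182). It was absent with the replicate number as a block in all 8 libraries (1882 and 1864) and at an adjusted p under 0.01 (1047 and 1001). It stayed with DESeq2's size factors (2646 and 5928), limma-voom (3069 and 6974) and the 4 rhizophore and root libraries alone (1530 and 5551). The fit on these 4 libraries alone held 1464 (52.2%) of the 2803 higher models and 4881 (83.3%) of the 5859 lower ones. A test of whether the change exceeded 2-fold called 1062 models higher (4.49%) and 1335 lower (5.64%).

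**Figure D1:**
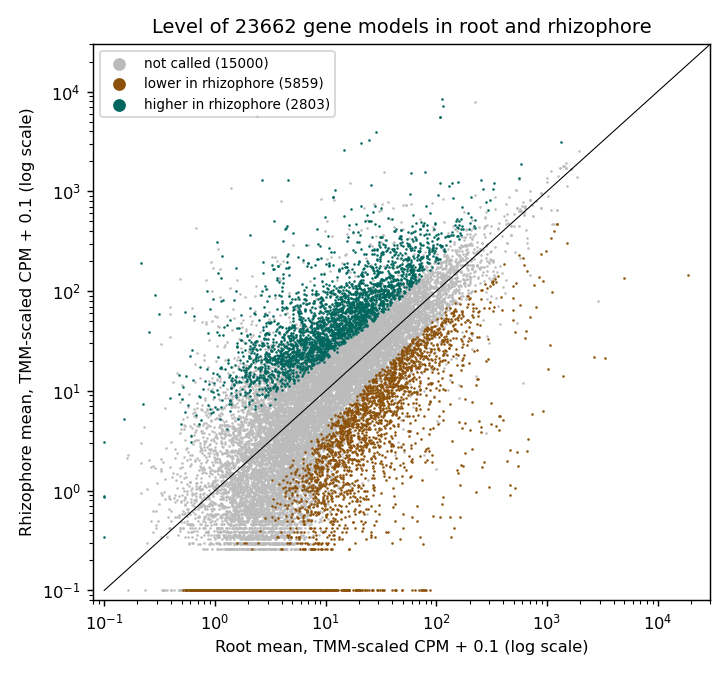
Mean level of each tested model in root (horizontal axis) and rhizophore (vertical axis), as TMM-scaled CPM plus 0.1 on log scales, with the line of equal levels. The 2803 models called higher in rhizophore lie above the line, the 5859 called lower lie below it, and the row at the bottom holds models with no listed count in either rhizophore library.

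The direction of the differences turned with the level. Models at 10 to 100 CPM in the organ with more RNA were called higher in rhizophore in 2010 of 10393 cases (19.3%) and lower in 1681 (16.2%). At 100 to 1000 CPM, 701 of 1933 models (36.3%) were higher and 275 (14.2%) lower, and at 1000 CPM or more 26 of 72 (36.1%) were higher and 13 (18.1%) lower. Below 10 CPM the balance was the other way. At 1 to 10 CPM, 63 of 10537 models (0.598%) were higher and 3560 (33.8%) lower, and under 1 CPM 3 of 727 (0.413%) were higher and 330 (45.4%) lower. The smallest listed level, described next, was higher in the rhizophore libraries than in root. It was not made equal for these classes or for the test. How far it shaped the balance at low levels was not tested.

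**Figure D2:**
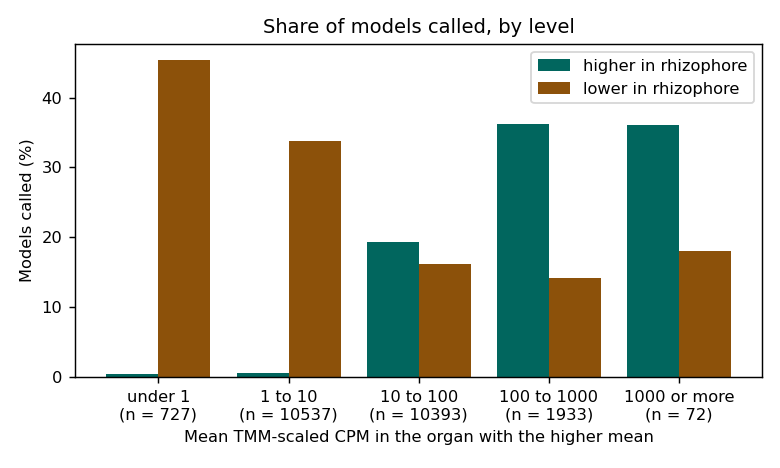
Percent of tested models called higher or lower in rhizophore, by the mean TMM-scaled CPM in the organ with the higher mean. Lower calls fall from 45.4% to 14.2% up to the class of 100 to 1000 CPM, whereas higher calls rise from 0.413% to 36.3%.

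The smallest count listed above 0 was 5, so a model at 0 may have had up to 4 reads, and this floor was higher in the smaller libraries. It stood at 0.402 and 0.324 CPM in rhizophore and at 0.127 and 0.103 CPM in root. The rhizophore libraries listed 18720 and 18593 models above 0, against 24582 and 24858 in root. With the highest of the 4 floors applied to each library, 18720 and 17904 models were at or above it in rhizophore and 23457 and 24514 in root, so the gap was also present at an equal floor.

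Between these organs, absence was almost all on the side of the rhizophore. Root was the exception among the 4 organs, however. At 0 in both libraries were 88 models in root, 5165 in rhizophore, 6280 in shoot and 5101 in leaf. The root libraries also held the most counts of the 8. At 0 in both rhizophore libraries and above 0 in both root libraries were 4799 models, and the reverse held for 6. With the equal floor the numbers were 4221 and 26. The levels concerned were low: the 4799 models had a median of 1.78 CPM in root, 53 of them reached 10 CPM in both root libraries and 7 reached 50 CPM. The highest of the 6 stood at 3.004 CPM in rhizophore. Shoot and leaf also listed 3219 of the 4799 at 0 in all 4 of their libraries. Of the 53 models that reached 10 CPM, 48 were above 0 in both shoot libraries and 39 in both leaf libraries.

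Models that differed changed by a median of about 4-fold upward. Downward the median was somewhat more, as a least value, once models at 0 were set at the bound that 5 counts per library allow. The 2803 models higher in rhizophore had a median log2 fold change of 2.01, with quartiles of 1.51 and 2.71, and their median level was 52.1 CPM in rhizophore and 11.99 CPM in root. Of the 5859 lower models, 3614 were at 0 in both rhizophore libraries, 210 in one of them and 2035 in neither. The test took each listed 0 as a count of 0, though it may stand for up to 4 reads. It was not repeated with such models at a bound. Of the 3614, 2727 had a least change of 4-fold or more. The 2035 had a median of -2.15, with quartiles of -2.95 and -1.61, at a median level of 28.0 CPM in root and 5.71 CPM in rhizophore. The 3614 had a median of 2.21 CPM in root, which is at least 6.08-fold above the rhizophore floor. With these at their bound, the median over all 5859 was -2.51, against -7.61 in the fitted values, which for a model at 0 depend on the prior count.

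Large changes were few among the higher models. With models at 0 set at their bound, 190 higher models (6.78%) and 678 lower models (11.6%) changed at least 16-fold. That is a log2 fold change of 4. The bound is a least change, so the numbers of lower models at each size are lower limits. The 3614 lower models at 0 in both rhizophore libraries had a median bound of 6.08-fold, short of 16-fold. In the fitted values, which depend on the prior count, 3978 lower models (67.9%) reached 16-fold. Of the 2035 lower models above 0 in both rhizophore libraries, 178 did. At a log2 fold change of 8 or more there were 7 higher and 13 lower models. At 2 or more there were 1418 higher models (50.6%) and 4070 lower models (69.5%). The smallest changes called were 0.86 up and 0.87 down.

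**Figure D3:**
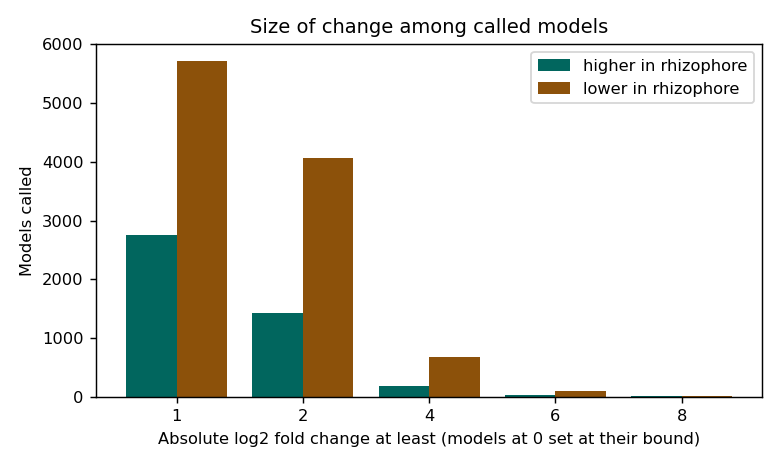
Number of called models whose absolute log2 fold change reached 1, 2, 4, 6 or 8, with models listed at 0 in an organ set at their bound. A bound is a least change, so these are least numbers. Lower calls outnumber higher calls at each size, from 5720 against 2750 at a log2 fold change of 1 to 13 against 7 at 8.

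Single models are given with the value of each library, and the rules by which they were picked are stated with the methods. The largest increase in rhizophore was in 439279.v1, at 6669 CPM in rhizophore replicate 1 and 4601 CPM in replicate 2, against 1.85 and 2.79 CPM in root. Both rhizophore libraries stood far above both root libraries, and the log2 fold change was 11.24 with an SE of 0.64 (adjusted p = 4.1e-05, edgeR). Shoot and leaf lay between the organs, at 166 and 167 CPM. In the authors' deposited table this model had a Rhizophore average of 7025 and a Root average of 2406. With the disputed column counted as root, it came to 2.12 on the log2 scale and was no longer called (adjusted p = 0.697 in edgeR; alternatives spanned 4.4e-236 to 0.697).

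The second increase, 89433.v1, rested mostly on 1 library. It stood at 374 CPM in rhizophore replicate 1 and 6.02 CPM in replicate 2, against 0.228 CPM in root replicate 1 and 0 in root replicate 2. The organs did not overlap, but the rhizophore libraries were 62.1-fold apart. The fit gave 10.70 on the log2 scale with an SE of 2.66 (adjusted p = 0.0428, edgeR), and the call ended in 12 of 17 alternatives (adjusted p of 2.4e-178 to 0.146). Among those were the fits without root replicate 1 or 2 (0.0843 and 0.111), leaf replicate 1 or 2 (0.0559 and 0.0546) and shoot replicate 1 or 2 (0.0931 and 0.0929).

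The models with the highest rhizophore CPM among those higher in rhizophore were 442072.v1 and 443224.v1. 442072.v1 stood at 10613 and 6422 CPM in rhizophore and at 22.4 and 202 CPM in root, so that it was higher by 6.25 on the log2 scale with an SE of 1.03 (adjusted p = 0.00462, edgeR). 443224.v1 stood at 7827 and 6576 CPM in rhizophore and at 28.6 and 202 CPM in root, and was higher by 5.96 with an SE of 0.90 (adjusted p = 0.00256). In both models the rhizophore libraries were close to each other and root replicate 2 was several times higher than root replicate 1. Shoot and leaf held 289.8 and 311 CPM of 442072.v1 and 901 and 791 CPM of 443224.v1, above both root libraries and below both rhizophore libraries. The authors' deposited Root averages of these models were 3391 and 3382, and with the disputed column counted as root their changes were 2.26 and 1.79 on the log2 scale and not called (adjusted p = 0.55 and 0.632 in edgeR, the highest of their alternatives, whose lowest were 3.7e-78 and 1.6e-72).

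In the other direction, the largest fitted decreases were in 137813.v1 and 137695.v1, neither of which had a listed count in either rhizophore library. The model 137813.v1 stood at 97.5 and 77.2 CPM in root, at least 241-fold above the rhizophore floor (adjusted p = 6.7e-05, edgeR). 137695.v1 stood at 79.6 and 80.4 CPM in root, at least 220.5-fold above that floor (adjusted p = 4.1e-05), and 1 other model followed its counts within 0.1 log2 throughout the series, so that reads could be split between copies. Root was not the organ with the highest level of either. Shoot and leaf had 2492 and 1865 CPM of 137813.v1 and 207 and 146 CPM of 137695.v1. Counting the disputed column as root placed a library without a listed count of either model among the root libraries. There both calls ended while the fitted changes stayed near theirs, at -13.08 against -13.67 and -12.96 against -13.54 on the log2 scale. Leaving that column out instead gave -13.78 and -13.65. Both settings left a single rhizophore library.

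The models with the highest root CPM among those lower in rhizophore were higher still in the leafy organs. The model 236852.v1 stood at 28022 and 9786 CPM in root and at 251 and 37.6 CPM in rhizophore, a difference of -7.04 on the log2 scale with an SE of 1.19 (adjusted p = 0.00338, edgeR). Its level was 170392 CPM in shoot and 134741 CPM in leaf. The model 139170.v1 stood at 7260.4 and 2687 CPM in root and at 233 and 37.2 CPM in rhizophore, a difference of -5.20 with an SE of 1.04 (adjusted p = 0.00732), and had 104558 CPM in shoot and 80782 CPM in leaf. In both models replicate 1 was the higher library of rhizophore and of root. The call of 139170.v1 ended without root replicate 1 (-4.45 on the log2 scale, adjusted p = 0.0735 in edgeR; alternatives spanned 1.5e-24 to 0.535), and with the disputed column counted as root both calls ended (adjusted p = 0.5 for 236852.v1, whose alternatives spanned 2.4e-28 to 0.5).

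Some models stood at close levels in all 4 libraries. Of 1186 models at 50 CPM or more in each, 467 stayed within a range of 1 on the log2 scale, and the median range was 1.17. The evenest was 98552.v1, at 52.6 and 55.1 CPM in rhizophore and 56.8 and 54.2 CPM in root, a range of 0.11 on the scale of log2(CPM + 0.5). Next came Smoe_00026991, at 82.1 and 74.9 CPM in rhizophore and 83.9 and 76.4 CPM in root, a range of 0.16. In both models the organs overlapped.

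**Figure D4:**
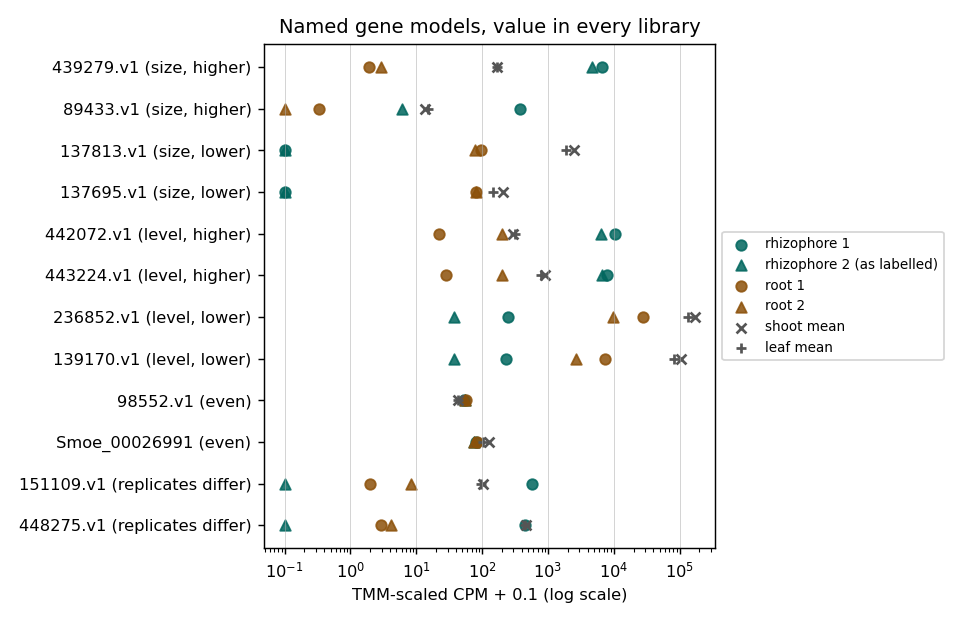
TMM-scaled CPM plus 0.1 on a log scale of the 12 named models, with a symbol for each rhizophore and root library and crosses for the shoot and leaf means. Rhizophore and root symbols lie apart in the first 8 models and coincide in 98552.v1 and Smoe_00026991, and in 151109.v1 and 448275.v1 rhizophore replicate 1 stands apart from the other 3 libraries.

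The rhizophore libraries differed from each other more than the root libraries did. Over 11124 models at 10 CPM or more in at least 2 of the 4 libraries, the median absolute difference on the scale of log2(CPM + 0.5) was 0.69 between the rhizophore libraries, 0.39 between the root libraries and 1.002 between the organ means. At least 4-fold apart were 1212 models (10.9%) between the rhizophore libraries, 126 (1.13%) between the root libraries and 2307 (20.7%) between the organ means. Of the 11124, 4212 (37.9%) had both rhizophore libraries above both root libraries and 3172 (28.5%) had both below. In 576 models (5.18%) rhizophore replicate 1 was above both root libraries and replicate 2 below both, and in 953 (8.57%) the reverse held.

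Taken one at a time, the rhizophore libraries had similar numbers of models far from root. Rhizophore replicate 1 was at least 4-fold above the root mean in 1282 of the 11124 models and at least 4-fold below it in 1321. Rhizophore replicate 2 was at least 4-fold above in 1375 and below in 1183. Both differences are taken from the same root mean, so the libraries share part of their direction through it, and how often they agreed is not read as a result.

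**Figure D5:**
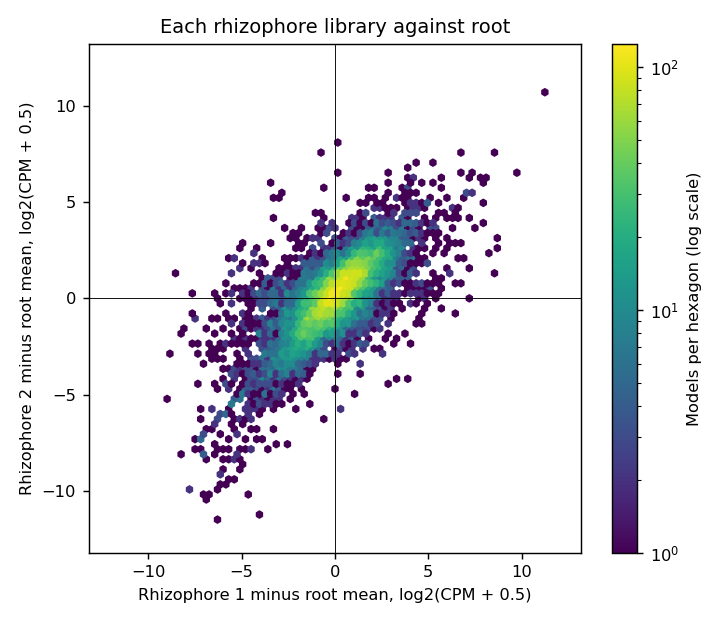
Difference from the root mean on the scale of log2(CPM + 0.5) in rhizophore replicate 1 (horizontal axis) and replicate 2 (vertical axis), for models at 10 CPM or more in at least 2 of the 4 libraries, with colour for the number of models per hexagon. Both axes share the root mean; 4212 models had both rhizophore libraries above both root libraries and 3172 had both below.

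Some abundant models differed widely between the rhizophore libraries. Of 4549 models at 50 CPM or more in at least 1 rhizophore library, 427 were at least 4-fold higher in replicate 1 and 425 in replicate 2. The clearest case, 151109.v1, had 578 CPM in replicate 1 and was at 0 in replicate 2, against 1.90 and 8.12 CPM in root. Likewise 448275.v1 had 443 CPM in replicate 1 and was at 0 in replicate 2, against 2.81 and 4.03 CPM in root. In both models replicate 2 was the lowest of the 4 libraries and replicate 1 the highest. Shoot and leaf held 103 and 94.7 CPM of 151109.v1 and 463 and 441 CPM of 448275.v1, the latter close to rhizophore replicate 1.

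Set against shoot and leaf, models that differed mostly had their highest mean in the organ that the comparison favoured. The rhizophore mean exceeded the shoot and leaf means in 2231 of the 2803 higher models (79.6%), against 44.7% of all tested models. The root mean exceeded both in 4715 of the 5859 lower models (80.5%), against 60.8% of all tested. Among lower models that share fell with level, from 90.5% of 3890 models under 10 CPM in root to 61.6% of 1681 at 10 to 100 CPM and 54.9% of 288 at 100 CPM or more. In 122 of those 288 (42.4%) shoot and leaf both exceeded root, against 31.6% of all tested models. Among higher models at 100 CPM or more in rhizophore, shoot and leaf both exceeded rhizophore in 96 of 727 (13.2%), against 33.8% of all tested models. The models were called for a high level in the same organ, which by itself raises that organ's share above the share of all tested models. The shares of all tested models cover every level and were not taken at matched levels. Shoot and leaf libraries were smaller than the root libraries, from 2826533 counts in leaf replicate 1 to 16058139 in leaf replicate 2. Their floors were therefore higher than those of root. How far this shaped the shares under 10 CPM was not tested. These counts compare means and were not tested.

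Names that start with Smoe and numeric names gave different balances. Of 2717 Smoe models tested, 484 (17.8%) were higher in rhizophore and 361 (13.3%) lower. Of 20945 models with numeric names, 2319 (11.1%) were higher and 5498 (26.2%) lower. The filter kept 2717 of 2719 Smoe models and 20945 of 22285 numeric ones. The balance also turned with level, and the kinds were not compared at equal level. The sources used here do not say how the kinds of model were made.

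The calls depended on which libraries entered. A fit that leaves 1 library in an organ takes the spread from the other organs. Its number of calls therefore does not show how far the calls hold without the library. The highest adjusted p of each tested named model came from such a fit, as did the lowest except for 439279.v1. Without rhizophore replicate 2, 3811 models were higher and 5091 lower, and these held 2422 (86.4%) of the 2803 higher and 3050 (52.1%) of the 5859 lower models. Without rhizophore replicate 1, 4025 were higher and 5446 lower, with 2506 (89.4%) and 3330 (56.8%) of the same models. Only 1667 models were called without root replicate 1 and 1925 without root replicate 2. With rhizophore replicate 2 counted as root, 306 were higher and 78 lower, and 101 of the 2803 higher models and 0 of the 5859 lower models were among them. No model called in one direction was called in the other in any of these 5 fits.

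The authors' deposited averages kept the direction of the lower models and not of all the higher ones. The authors' deposited Root average exceeded the Rhizophore average in 5858 of the 5859 lower models. The Rhizophore average exceeded the Root average in 2142 of the 2803 higher models (76.4%), and the Root average was the larger in 661 (23.6%). In the authors' deposited table the median log2 ratio of the averages, each plus 0.5, was 0.62 for the higher models and -1.61 for the lower, against 1.95 and -2.34 from the CPM means. These averages share the count columns with the test and are no separate measurement.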

How the data were processed

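RNA of 4 organs was sequenced as 50 bp single-end reads from 40 pooled tissues per library. The authors deposited raw read counts per gene model and library, and a normalized signal averaged per organ, per the file headers. The submitters' processing notes name Bowtie2 and edgeR; those sources do not give versions, build, annotation, strand or the way of counting. Members and lists were chosen with earlier results of these data known, and lists by gene name matched 0 models.

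Counts were tested with edgeR 4.0.16 (R 4.3.3): TMM, filterByExpr (23662 of 25004 models kept), robust quasi-likelihood fit on all 8 libraries with organ as the term, and Benjamini-Hochberg adjustment, called under 0.05. The 8 libraries share a spread because 2 per organ leave few degrees of freedom. SE is the log2 fold change over the root of F. Within an organ, libraries differed beyond sampling noise, with a chi-square of 253 per degree of freedom for rhizophore and 119.9 for root.

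Named models were called, with non-overlapping organs and at least 50 CPM in the higher organ: the 2 with the largest change and the 2 with the highest level, per direction. Further, the 2 evenest models at 50 CPM or more in all 4 libraries were named, and the 2 at 50 CPM or more in 1 rhizophore library with the largest difference between rhizophore libraries. Column weights came from non-negative least squares on TMM-scaled CPM (scipy 1.17.1). The procedure was tested on simulated data. Alternatives used DESeq2 1.42.0 and limma-voom (limma 3.58.1), other filters, a replicate block and single libraries left out.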

Additional observations from a re-analysis of the deposited data

Results flagged for a closer look

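The authors' deposited Rhizophore average was above 0 in 467 of the 5165 models that both rhizophore count columns list at 0 (9.04%), which is a signal outside the counts compared above. These averages ran from 0.141 to 0.588, with a median of 0.172. The same was seen for 0 of 6280 models at 0 in both shoot columns, for 0 of 5101 models at 0 in both leaf columns, and for 0 of 80 models at 0 in both root columns and in rhizophore replicate 2. Of the 6284 models at 0 in rhizophore replicate 1, 850 (13.5%) had a Rhizophore average above 0. Of the 467 models, 357 were among those called lower in rhizophore. Where this signal comes from was not tested.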

How the results depend on the processing

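Against 8662 models called, the count was 5648 with no low-count filter, 4853 with a filter of 10 CPM in 2 libraries, 2048 at an adjusted p under 0.01 (1047 higher and 1001 lower) and 2397 in the test of a change over 2-fold. It was 8574 with DESeq2's size factors, 7010 with DESeq2's test, 10043 with limma-voom and 7081 with the 4 rhizophore and root libraries alone. Leaving out 1 library gave 1667 to 9471 calls, and 5083 to 5345 when that library was a shoot or leaf. With rhizophore replicate 2 counted as root 384 were called. The labels do not say that replicate numbers pair samples, and across models the replicate differences of rhizophore and root had a correlation of 0.0650. With the replicate block, 3746 models were called in 8 libraries (1882 higher, 1864 lower) and 0 in the 4 libraries alone, where edgeR's lowest adjusted p was 0.105, and 5758 of 23919 models had an unadjusted p under 0.05. No other tool was run with the block.

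The 8 named models tested kept their direction in all 136 fits and their call in 109. In the 4-library fit with the replicate block and with rhizophore replicate 2 counted as root all 8 calls ended. Under that block the changes stayed near those reported (11.22 against 11.24 for 439279.v1, 6.91 against 6.25 for 442072.v1 and -7.44 against -7.04 for 236852.v1, on the log2 scale), with adjusted p of 0.105 to 0.113. Of the 4799 models at 0 in rhizophore and above 0 in root, 53 reached 10 CPM and 7 reached 50 CPM, and 4844 to 6008 were found with 1 library left out. For the 6 in the other direction the numbers were 0 and 0, 26 with an equal floor, and 8 to 34 with 1 library left out. The equal floor and these counts with libraries left out were chosen after seeing the data. Models with both root libraries above both rhizophore libraries numbered 4130 with the 10 CPM filter, and 12049 to 13345 with 1 library left out. Those with rhizophore above root then numbered 4659 and 6594 to 7762, and 5159 with DESeq2's size factors and 4013 with unscaled CPM. Under these scalings, root lay above rhizophore in 11163 and 12469 models. The 100 leading models took 25.04% and 17.1% of the rhizophore counts and 20.3% and 18.1% of the root counts. A stricter cut lowers a count by construction, and dropping a library can only add models to the counts at 0 or without overlap. The cause of the other shifts was not tested.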
